A study of Mus musculus with 7 samples.

Results

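Macrophages of the mouse nose at embryonic day 14.5 were taken from droplet single-cell RNA sequencing of whole embryonic noses. Barcodes with 500 or more genes, and with mitochondrial UMIs (unique molecular identifiers, 1 per captured transcript) at 10% or below, were kept as cells. Macrophages were chosen by their measured RNA, as kept cells with at least 1 UMI of at least 3 of 6 genes: C1qa, C1qb and C1qc, which encode the subunits of complement C1q, Csf1r, the receptor of colony-stimulating factor 1, Mrc1, the mannose receptor, and Fcer1g, the signalling chain of several Fc receptors. By this rule 242 of 31465 kept cells in 6 libraries were macrophages. The 5 wild-type (WT) libraries came from CD1 IGS mice. A further 2 came from 1 nose labelled ProKR2iCre/R26tdTomato (the Cre allele B6;SJL-Prokr2em1(cre)Cfe with the reporter allele Gt(ROSA)26Sortm14(CAG-tdTomato)Hze/J), in which Cre from the Prokr2 locus switches on tdTomato. The protocols count 5 CD1 noses without tying them to libraries. They say that cells of the ProKR2iCre/R26tdTomato nose were profiled both sorted and unsorted, not which library is which, so these are called Prokr2Cre library 1 and library 2 and are given singly. All noses were dissociated with papain and collagenase A, frozen and thawed before capture. Genetic background and the version of the counting software also differ between WT and Prokr2Cre and cannot be told apart from the alleles.

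Tissue macrophages take up dying cells, digest them in lysosomes, recycle their lipid and iron, and sense microbes through Toll-like and Fc receptors. In the embryo the earliest of them arise from precursors of the yolk sac and later ones from monocytes of the fetal liver. The brain's resident macrophages, the microglia, and the bone-resorbing osteoclasts belong to the same family of cells and depend on Csf1r as well. Lists of genes known from each of these cells were therefore read in the macrophages of the nose.

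WT replicates 3 and 4 shared 7386 barcodes, all 45 macrophages among them. Replicate 3 was left out, so that n = 4 for WT (replicates 1, 2, 4 and 5). Any other 2 libraries had at most 34 barcodes in common, and no macrophage. The labels do not say whether the replicates are separate animals, so a standard deviation (SD) measures only the spread between these captures. Total depth over the 6 libraries ranged from 16773781 to 89800259 UMIs. Counting used another version of Cell Ranger in WT replicate 1 (6.0.1) than in the other WT libraries (7.0.0), which bears on genes named later. Because the 6 genes chose the cells, a contrast with the other kept cells carries no test, and all differences are given as descriptions.

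Macrophages were a rare cell of the nose. They were 99 of 7790 kept cells in WT replicate 1 (1.27%, exact binomial 95% interval 1.03 to 1.55), 57 of 10496 in replicate 2 (0.543%, 0.412 to 0.703), 45 of 7029 in replicate 4 (0.640%, 0.467 to 0.856) and 29 of 3250 in replicate 5 (0.892%, 0.598 to 1.28). The mean was 0.837% ± 0.325 (SD, n = 4). Prokr2Cre library 1 held 12 of 1789 cells (0.671%, 0.347 to 1.17). Prokr2Cre library 2 held 0 of 1111, which allows a share of up to 0.270% by 3 counts. WT replicate 1 stood highest, with an interval that overlapped that of replicate 5 but not those of replicates 2 and 4. The intervals of replicates 2, 4 and 5 overlapped each other. Intervals and limits cover counting error only, and a share after dissociation and freezing is a share of recovered cells.

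**Figure D1:**
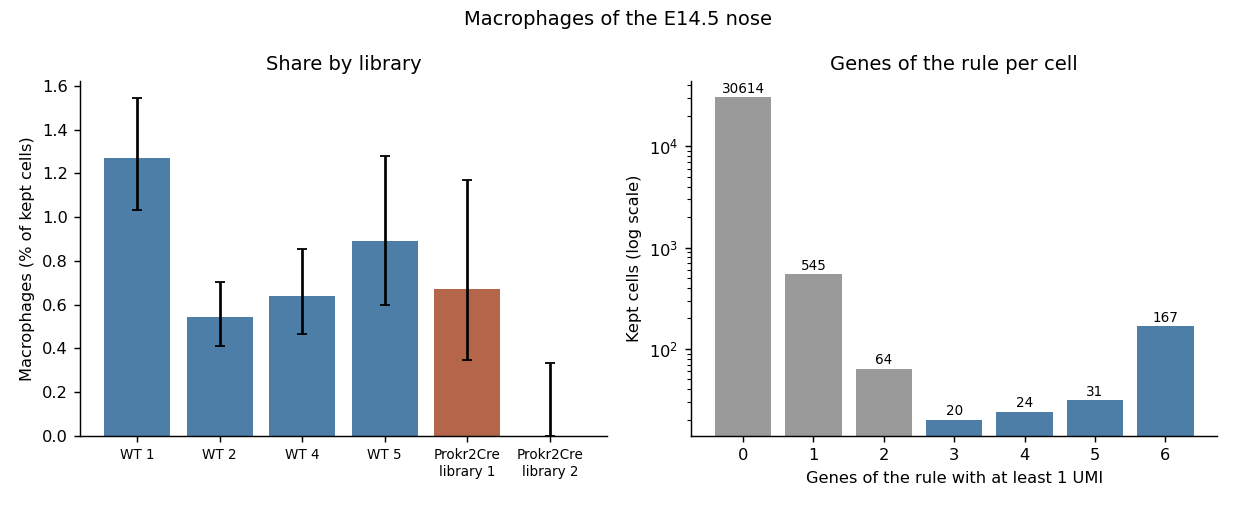
Left, macrophages as a percentage of kept cells in each library (bars, WT blue, Prokr2Cre brown) with exact binomial 95% intervals. Right, kept cells of the 6 libraries by the number of the 6 genes with at least 1 UMI, on a log axis: 30614 cells held none, 167 held all 6, and the blue bars are the macrophages.

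The choice of cells by number of genes was not sharp at its lower edge. Of the macrophages, 167 held all 6 genes, 31 held 5, 24 held 4 and 20 held 3. The 20 cells just inside the rule held a median of 4.5 of 22 other macrophage genes at a median of 3477.5 UMIs per cell. The 64 cells just outside, with 2 of the 6 genes, held a median of 8.5 of these 22 genes at a median of 13442 UMIs. So cells near the edge on its outer side were deeper and held more macrophage genes than those on its inner side. Cells with all 6 genes held a median of 17 of the 22.

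Depth differed between macrophages and other cells, and not in the same direction everywhere. The median macrophage held 12287 UMIs in WT replicate 1 against 9003 in other kept cells, 8708 against 5113 in replicate 2, 10137 against 5839 in replicate 4, and 26382 against 13638 in Prokr2Cre library 1. In WT replicate 5 it was the reverse, with 4034 UMIs in macrophages and 11375 in other cells. Levels below are counts per 1000000 UMIs (CPM) of the summed macrophages of a capture. The libraries read the 3′ end of transcripts, and levels are compared for 1 gene between cells, not between genes.

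The 6 genes that chose the cells had these levels, which are a description. C1qa was at 1675 ± 270 CPM (SD, n = 4), C1qb at 1735 ± 203, C1qc at 1384 ± 159, Csf1r at 343 ± 54.4, Mrc1 at 1154 ± 455 and Fcer1g at 2375 ± 120. In other kept cells the means were 0.252, 0.290, 0.309, 0.662, 0.350 and 7.09 CPM. Single UMIs of C1qa were found in 0.0859% to 0.364% of the other cells of a WT capture, against 86.2% to 97.0% of macrophages. Mrc1 and Csf1r reached fewer macrophages. Mrc1 was in 62.1% in WT replicate 5 and 89.5% in replicate 2, and in 5 of 12 in Prokr2Cre library 1. Csf1r was in 65.5% in WT replicate 5 and 93.3% in replicate 4, and in 10 of 12 in Prokr2Cre library 1.

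Other genes of the macrophage programme went with them. Of 22 core genes not used by the rule, 21 were higher, meaning at least 2-fold in CPM in all 4 WT captures. Over all 10106 genes with a mean of at least 10 CPM in either group, 8.6% were higher by this definition, 13.5% were lower (at most 0.5-fold in all 4), and the median log2 ratio was -0.32. The rule itself used this contrast, so nothing is read from the counts. A gene low in other cells also passes the filter through macrophages alone. Counts of higher genes in the lists below are therefore descriptions only. Spi1, which encodes PU.1, the factor that commits cells to the myeloid lineage, was at 360 ± 49.4 CPM against 1.72. Tyrobp, an adaptor of activating receptors, was at 1653 ± 222 against 8.48. The leukocyte gene Ptprc was at 96.5 ± 33.4 against 1.21, and Adgre1, the F4/80 antigen, at 181 ± 66.6 against 0.186. Mast cell, neutrophil and lymphoid markers were near 0: the 6 mast cell genes summed to between 0 and 4.14 CPM in the WT captures, the 8 neutrophil genes to between 0 and 5.15, and the 6 lymphoid genes to between 0 and 2.58. The sum of the monocyte genes was not near 0, at 96.3 to 188 CPM, though 3 of the 8 had 0 UMIs in WT macrophages. Genes of MHC class II and dendritic cells summed to 69.8 to 166 CPM, and 4 of the 12 had 0 UMIs. Most of that sum was Cd74, at 63.5, 145, 64.9 and 111 CPM in WT replicates 1, 2, 4 and 5. In replicates 2, 4 and 5, 1 cell gave 51.4%, 61.8% and 79.1% of the UMIs of Cd74.

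The 25 genes with the largest ratios outside the rule were led by Fcrls, an Fc receptor-like scavenger gene also known from microglia, by Ms4a7 and by Lyve1, the hyaluronan receptor. Fcrls stood at 492, 675, 578 and 662 CPM in WT replicates 1, 2, 4 and 5, and at 506 CPM in Prokr2Cre library 1. Its mean in other cells was 0.107 CPM. The 4 WT values and that of the Prokr2Cre library lie within 1.5-fold of each other. Ms4a7, a membrane gene of macrophages, was at 304 ± 37.3 CPM against 0.0600. Ccl24, an eosinophil-attracting chemokine, was at 372 ± 37.4 CPM against 0.106 in WT, and at 26.8 CPM in Prokr2Cre library 1. The list holds receptors of the complement fragments, C3ar1 (167 ± 40.8 CPM) and C5ar1 (52.9 ± 17.1), purine receptors, P2ry6 (127 ± 20.9) and P2ry13 (22.1 ± 6.73), and endosomal sensors of nucleic acid, Tlr7 (29.5 ± 5.48) and Tlr13 (24.5 ± 4.12). It also holds Cryba4, a lens crystallin gene by name, at 94.9 ± 38.4 CPM, and Tcf24, which encodes a basic helix-loop-helix factor, at 237 ± 123 CPM with the lowest value, 86.5, in WT replicate 1.

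**Figure D2:**
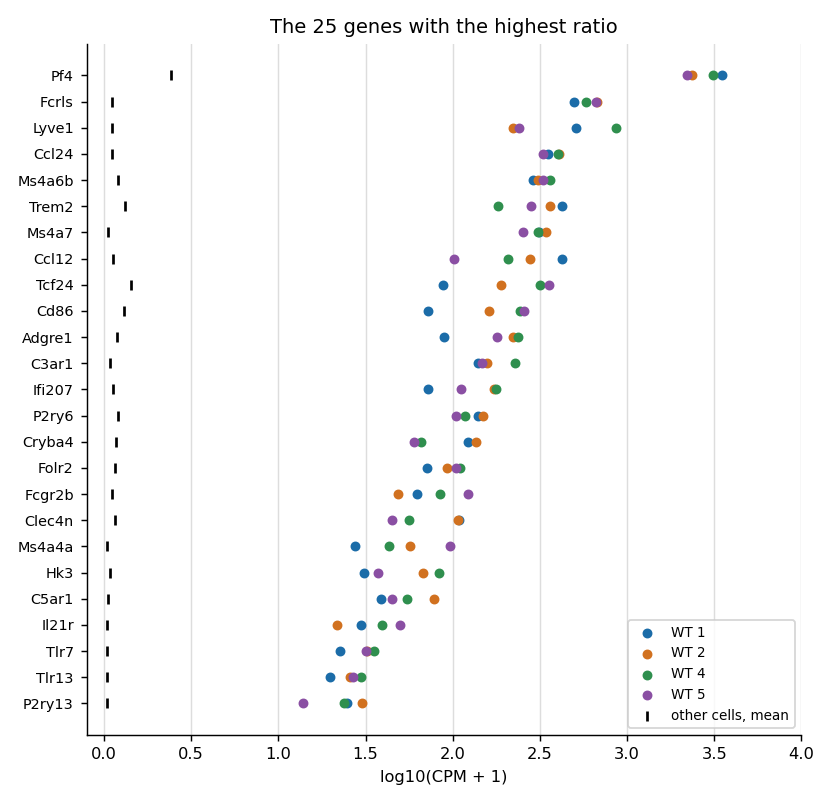
Levels of the 25 genes with the highest ratio as log10(CPM + 1), coloured points for macrophages of each WT capture and black ticks for the mean of other kept cells. The WT captures lie at 2216 to 3517 CPM for Pf4 and spread from 220 to 865 CPM for Lyve1.

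Several of these genes lie side by side in the genome. The Ms4a family spans chromosome 19 from 10962293 to 11640851 (GRCm38, GENCODE M21) with 19 genes, of which 6 passed the 10 CPM filter. All 6 were at 1.27 CPM or less in other cells and passed through macrophages alone. That they were higher in macrophages therefore largely follows from the filter. These were Ms4a7, Ms4a4a, Ms4a4c, Ms4a6b, Ms4a6c and Ms4a6d. Ms4a6c was at 476 ± 43.7 CPM against 1.27, and Ms4a6d at 160 ± 27.4 against 0.379. Within the same span, Ms4a1, known from B cells, and Ms4a2, known from mast cells, had 0 UMIs in WT macrophages. Neighbouring members of such a family can share reads, and their split rests on the counting by the authors.

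Promoter sequences were read from RefSeq (GRCm38.p6) for a short motif of PU.1, since the genes above are high together. The core GAGGAA was sought on both strands in the 250 bases before the first listed start of each gene. A sequence was matched for 670 of the 869 higher genes, and 30.6% of these held the core, against 20.8% of 1035 matched lower genes, 22.3% of all 8028 matched genes that passed the filter, and 23.1% of all 27025 promoters. Of the 25 leading genes, 17 were matched and 7 held it. The longer PU.1-IRF composite was in 3.43% of higher and 1.64% of lower genes, and in 2.03% of those that passed the filter (2.38% of all promoters). The AP-1 motif TGANTCA was in 6.72% of higher and 3.67% of lower genes, and in 3.67% of those that passed the filter (6.87% of all). A lysosomal E-box, TCACGTGA, was in 2.39% of higher and 0.773% of lower genes, and in 1.73% of those that passed the filter (0.803% of all). A match is a run of letters and not a shown site. The last 120 bases before the start are printed for C1qb, Pf4 and Trem2, chosen because they hold the core, with it (as GAGGAA or, on the other strand, TTCCTC) in capitals. They lie at chr4:136886201-136886320 on the minus strand, chr5:90772315-90772434 on the plus strand and chr17:48346281-48346400 on the plus strand.
C1qb: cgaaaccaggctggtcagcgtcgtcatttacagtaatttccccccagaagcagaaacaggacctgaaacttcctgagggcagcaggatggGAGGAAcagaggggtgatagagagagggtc
Pf4: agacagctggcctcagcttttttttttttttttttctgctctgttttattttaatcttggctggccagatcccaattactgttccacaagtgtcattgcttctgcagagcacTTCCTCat
Trem2: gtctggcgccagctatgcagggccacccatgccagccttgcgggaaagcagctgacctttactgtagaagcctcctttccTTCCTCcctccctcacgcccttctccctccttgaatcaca
Of 10 such windows read for genes high in these cells, 4 held the core, Mrc1 being the other, and 6 did not (C1qc, Fcer1g, Fcrls, Ms4a7, C3ar1 and Cx3cr1). These windows are shorter than the 250 bases of the shares above. Within 250 bases, C1qc (at -193) and Fcrls (at -144) also held the core. Each of the printed windows holds the core 1 time, beginning at position -30 in C1qb, -8 in Pf4 and -40 in Trem2, counted from the start.

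Genes known from macrophages of yolk sac origin were high in the nose. Of 18 such genes 15 passed the filter, 12 were higher, none was lower, and the median log2 ratio was 8.62. Pf4, the platelet factor 4 chemokine also made by yolk sac type macrophages, was at 3517, 2363, 3096 and 2216 CPM in WT replicates 1, 2, 4 and 5, and at 670 CPM in Prokr2Cre library 1. F13a1, a clotting factor subunit, was at 733 ± 279 CPM against 1.48 in other cells. Stab1, a scavenger receptor, was at 690 ± 98.6 against 1.75, and Folr2, a folate receptor, at 93.4 ± 16.9 against 0.149. Other megakaryocyte genes did not accompany Pf4: Gp1ba and Gp1bb had 0 UMIs, Gp9 had 1, and Itga2b was at 1.87 ± 1.43 CPM.

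Members of this list differed between captures. Lyve1 was at 507, 220, 865 and 240 CPM in WT replicates 1, 2, 4 and 5, and had 0 UMIs in the 12 macrophages of Prokr2Cre library 1. Between 31.0% and 53.3% of the macrophages of a WT capture held it. Cd209f, a lectin gene, was at 198 CPM in WT replicate 1 and 20.7 in replicate 2, with 0 UMIs in replicates 4 and 5. Only 4 of 99 macrophages held it in replicate 1, and 1 cell gave 62.0% of its UMIs. Timd4, a receptor for phosphatidylserine, was at 10.4 ± 5.74 CPM, and Cd163, a scavenger receptor, and Vsig4, a complement receptor, stayed under the filter with 10 and 2 UMIs in all WT macrophages. Igfbp4 was at 517 ± 126 CPM and not above other cells (455 CPM), and Cbr2 was at 15.1 ± 20.4 against 36.4.

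Microglia-like genes were split. Of 12 genes 11 passed the filter, 8 were higher, 1 was lower, and the median log2 ratio was 7.38. Trem2, a lipid-sensing receptor, was at 423, 360, 181 and 278 CPM in WT replicates 1, 2, 4 and 5 and at 241 CPM in Prokr2Cre library 1. P2ry12, the purine receptor by which microglia follow nucleotides, was at 50.2, 72.5, 47.7 and 54.1 CPM, and between 23.2% and 36.8% of the macrophages of a WT capture held it. Gpr34 was at 56.2 ± 24.5 CPM and Crybb1 at 59.2 ± 37.5, and Siglech at 10.1 ± 5.74. Sall1, a factor that marks microglia among macrophages, had 6 UMIs in all WT macrophages (2.12 ± 1.59 CPM) and 2.67 CPM in other cells. Tmem119, another microglial marker, was at 20.9 ± 15.8 CPM against 33.2, and Olfml3 was lower, at 19.1 ± 6.48 against 56.6. So the receptors of the list were high and Sall1 and Tmem119 were not above other nasal cells.

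Osteoclast genes were mostly not higher. Of 14 genes 8 passed the filter, 2 were higher, none was lower, and the median log2 ratio was 1.04. The higher ones were Tnfrsf11a, the receptor for the osteoclast signal RANKL, at 118 ± 50.7 CPM against 1.09, and Tcirg1, a proton pump subunit, at 19.7 ± 4.63 against 6.23. Among the WT captures the resorption enzymes were found mainly in replicate 1: Ctsk, cathepsin K, was at 25.1 CPM there and had 0 UMIs in replicates 2, 4 and 5. Mmp9 was at 55.8, 4.14, 0 and 0 CPM in WT replicates 1, 2, 4 and 5, and 1 cell gave 76.3% of its UMIs in replicate 1. Acp5, the tartrate-resistant acid phosphatase, was at 69.1, 18.6, 7.64 and 10.3 CPM. In replicate 1 the cell richest in each gave 61.1% of the UMIs of Ctsk and 50.5% of those of Acp5. Car2, a carbonic anhydrase gene of the same list, was at 121, 4.14, 0 and 12.9 CPM in WT replicates 1, 2, 4 and 5. In replicate 1 it was held by 47 of 99 macrophages, and the richest cell gave 6.9% of its UMIs. In Prokr2Cre library 1, Mmp9 was at 151 CPM, Acp5 at 134 and Ctsk at 20.1, and the list summed to 519.6 CPM against 215 to 390 in WT. Of that sum 1 of the 12 cells gave 57.4%, and the level without it was 248 CPM, while the WT sums keep all cells. Oscar and Calcr had 0 UMIs.

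**Figure D3:**
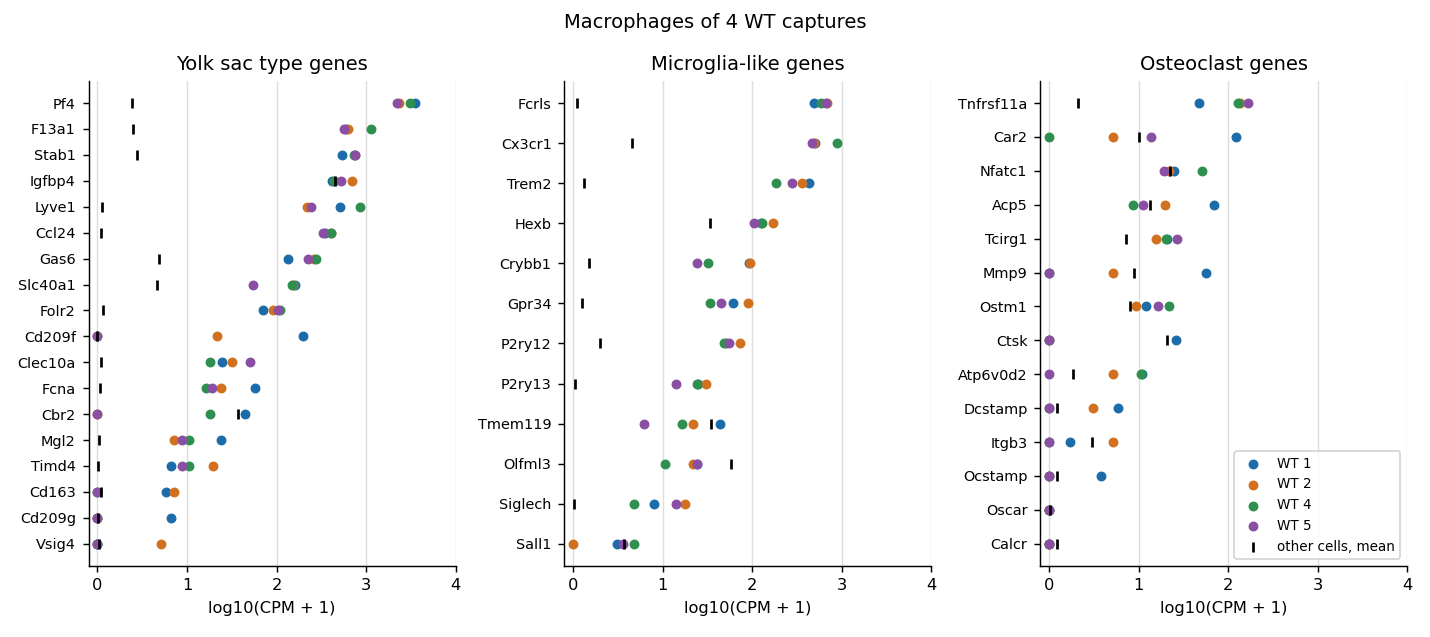
Levels of the yolk sac type, microglia-like and osteoclast genes as log10(CPM + 1), coloured points for macrophages of each WT capture and black ticks for the mean of other kept cells. Points lie right of the ticks for most genes of the first 2 panels, while Igfbp4, Sall1 and Nfatc1 lie near theirs.

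Most kept cells that held the osteoclast enzymes together lay outside the rule, though the share was larger inside it. Ctsk, Acp5 and Mmp9 together, a combination chosen after the values were seen, were held by 44 kept cells. Of these, 2 were among the 242 macrophages of the rule and 42 among the 31223 other kept cells. The 42 had 0 UMIs of C1qa, C1qb and C1qc. WT replicate 1 held 32 of the 44, at a median of 21837 UMIs, and WT replicate 4 held 0. Csf1r was present in 12 of the 42, Spi1 in 20, and at least 5 of the 22 core genes in 13. More widely, 119 kept cells held at least 5 core genes but fewer than 3 of the 6 genes of the rule. Of those, 39 held at least 3 osteoclast genes, 30 at least 3 monocyte genes, 25 at least 3 microglia-like genes and 23 at least 3 mast cell genes. Another 3 or more genes were held by 22 for the yolk sac type and by 16 for antigen presentation by MHC class II or dendritic cells. For neutrophil genes it was 7 and for lymphoid genes 2. Among all other kept cells of the WT captures, equally unthinned, the mean shares were 1.61% (osteoclast), 0.0918% (monocyte), 3.87% (microglia-like), 0.793% (yolk sac type) and 0.0379% (class II and dendritic). These shares include the WT cells of the 119 themselves, which were chosen by core genes, so nothing is read from the comparison. The 119 also include 15 cells of Prokr2Cre library 1 and 2 of library 2. No such share is given for mast cell, neutrophil or lymphoid genes. A cell could meet several lists, and the median depth of the 119 cells was 16798 UMIs. The rule and the list chose the 39 cells with osteoclast genes, so their levels of these genes are a description: Acp5 was at 1081 CPM and Ctsk at 662, against 49.9 and 13.4 in all 242 macrophages, and Csf1r at 69.1 against 320.2.

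Shares of cells were compared at a fixed depth by thinning each cell to 2000 UMIs, which left out 24 of 230 WT macrophages and 1149 of 28335 other cells. At least 3 yolk sac type genes were then held by 66.5% ± 13.8 (SD, n = 4) of macrophages and 0.0269% ± 0.0329 of other cells, and unthinned by 84.4% and 0.793%. By capture the thinned share was 61 of 92 macrophages in WT replicate 1 (66.3%), 40 of 53 in replicate 2 (75.5%), 34 of 44 in replicate 4 (77.3%) and 8 of 17 in replicate 5 (47.1%, exact 95% interval 23.0 to 72.2). In Prokr2Cre library 1 it was 4 of 11 (36.4%, 10.9 to 69.2). WT replicate 5 and the Prokr2Cre library were lowest, with intervals that overlap those of the others.

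At least 3 microglia-like genes were held by 43.6% ± 4.64 (SD, n = 4) of thinned macrophages and 0.0804% ± 0.0405 of other cells. The range over WT captures was 38.6% to 49.1%, and Prokr2Cre library 1 gave 5 of 11 cells (45.5%, exact 95% interval 16.7 to 76.6). At least 3 osteoclast genes were held by 1.78% ± 1.62 of macrophages, which is 4 cells over the WT captures, and by 0.0653% ± 0.0539 of other cells. Many cells met both of the first 2 lists: of 147 macrophages with 3 yolk sac type genes over all libraries, 74 (50.3%) also held 3 microglia-like genes, and of the 70 without them 23 did (32.9%). The overlap is a description, since both lists are read from the same UMIs of a cell.

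Genes of dividing cells were found in macrophages. At least 3 of 14 cell cycle genes were held by 37.7% ± 3.87 (SD, n = 4) of thinned macrophages and 20.6% ± 3.07 of other kept cells. In each capture the macrophage share was above that of other cells: 34.8% against 18.1% in WT replicate 1, 34.0% against 23.6% in replicate 2, 40.9% against 22.8% in replicate 4 and 41.2% against 17.7% in replicate 5. In Prokr2Cre library 1 it was 5 of 11 (45.5%) against 29.3%. Gene by gene, none of the 14 was 2-fold different in all 4 captures, and the median log2 ratio was 0.55. Mki67 was at 190 ± 130 CPM against 93.8, with its highest value, 384, in WT replicate 4, and Mcm5, a replication helicase subunit, was at 64.1 ± 9.58 against 34.3. The other kept cells mix many types, dividing and not, and the level of free RNA of these genes was not tested.

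The uptake of dying cells was represented by receptors and bridging proteins. Of 16 genes 15 passed the filter, 8 were higher and 1 was lower (median log2 ratio 1.38). Gas6, which bridges phosphatidylserine to TAM receptors, was at 133, 263, 279 and 224 CPM in WT replicates 1, 2, 4 and 5, and at 30.2 CPM in Prokr2Cre library 1. Its mean in other cells was 3.89 CPM. Mertk, its receptor, was at 77.6 ± 42.0 CPM against 29.9, while the sister receptors Axl (10.7 ± 6.51 against 19.7) and Tyro3 (1.65 ± 1.95 against 10.9) were not higher. Mfge8, another bridging protein, was lower, at 10.4 ± 4.07 against 39.0. Cd36 was at 123 ± 66.1 against 2.33, and Abca1, the cholesterol exporter, at 232 ± 98.9 against 21.1.

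Lysosomal genes were higher in 16 of 24 and lower in none (median log2 ratio 2.22). Ctsb, a cathepsin, was at 1607 ± 208 CPM against 84.0, and Lgmn, the asparaginyl endopeptidase, at 876 ± 270 against 29.1. Ctss was at 529 ± 114 against 1.51, and Hexa at 344 ± 48.3 against 47.4. Neither Cd63, a membrane protein of lysosomes (632 ± 168 against 642), nor Npc1, a cholesterol transporter (8.28 to 30.5 over the WT captures, against 17.3), was higher or lower. Of 10 lipid genes 9 passed the filter and 5 were higher. Apoe, the main lipid carrier of macrophages, was at 8437 ± 1118 CPM against 102, Lpl at 121 ± 34.7 against 8.17 and Plin2, a coat protein of lipid droplets, at 397 ± 90.9 against 41.3. Fabp5 was at 414 ± 169 against 592.

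Genes of iron and heme handling were higher in 9 of the 10 that passed the filter (median log2 ratio 2.57). Ftl1 and Fth1, the ferritin chains, were at 8500 ± 1895 and 7029 ± 1726 CPM against 2069 and 1654. Slc40a1, ferroportin, the iron exporter, was at 162, 151, 147 and 54.1 CPM in WT replicates 1, 2, 4 and 5, against a mean of 3.64 in other cells. Hmox1, which opens the heme ring, was at 491, 839, 164 and 237 CPM in WT replicates 1, 2, 4 and 5, against a mean of 16.3 in other cells. In replicate 2, 1 cell gave 35.1% of its UMIs, and the level without that cell was 556 CPM. Blvrb, a biliverdin reductase, was at 632 ± 73.5 against 95.9. Spic, a factor of iron-recycling macrophages of the spleen, had 21 UMIs and Cd163, the hemoglobin receptor, had 10 in all WT macrophages.

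Globin RNA itself was high in 1 macrophage. At low levels Hbb-bs was held by more, 46 of 99 in WT replicate 1 and 9 of 12 in Prokr2Cre library 1. In WT replicate 5, Hbb-bs was at 11603 CPM, of which 1 cell gave 99.9%. Without that cell the level was 12.1 CPM, next to 53.7, 14.5 and 11.5 in WT replicates 1, 2 and 4, and the same held for Hba-a1, at 5487 CPM with it and 3.03 without. In other kept cells Hbb-bs had a mean of 1163 CPM. The embryonic globin Hbb-y was among the 10 genes with the lowest ratios, at 2.94 ± 1.95 against 165 CPM.

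Complement genes outside C1q were higher in 6 of the 7 that passed the filter. Besides the receptors C3ar1 and C5ar1 these included Cfp, properdin, at 61.2 ± 15.6 CPM against 2.21, and the chains of complement receptor 3, Itgam (17.2 ± 8.88 against 0.223) and Itgb2 (5.15 to 19.5 over the WT captures, against 0.225). Serping1, the C1 inhibitor, was lower, at 2.16 ± 1.72 against 14.9. C3 had 5 UMIs and C4b had 0 in all WT macrophages. Of the genes of innate sensing, 10 passed the filter and these were higher, among them Msr1, Cd14, Tlr2 and Tlr4. Tlr2 was at 37.8 ± 4.58 against 1.67 and Cd14, the co-receptor for lipopolysaccharide, at 90.9 ± 17.5 against 1.36. All 5 Fc receptor genes were higher, with the largest ratio for Fcgr2b, the inhibitory receptor, at 78.5 ± 32.1 against 0.115. In other cells the whole lists summed to 39.4 CPM (complement), 15.1 (innate sensing) and 48.4 (Fc receptors). Genes so low there pass the filter through macrophages alone, so these counts are not read as results.

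Chemokine and cytokine genes were higher in 13 of 16, and several differed widely between captures. Ccl2, the ligand of Ccr2, was at 326, 377, 191 and 186 CPM in WT replicates 1, 2, 4 and 5, and Ccl12 at 422, 275, 206 and 101. Cxcl2, a neutrophil attractant, was at 639, 93.2, 1.91 and 108 CPM, so that WT replicate 1 was the highest and replicate 4 had 1 UMI. Ccl4 was at 814, 619, 168 and 121 CPM, and Il1b at 117, 2.07, 0 and 61.9. In replicate 5 all 24 UMIs of Il1b came from 1 cell, and without the richest cell Cxcl2 was at 55.0 CPM there and Ccl4 at 68.4. Cxcl2 in replicate 2 was at 60.0 CPM without its richest cell. Tgfb1, in contrast, varied little, at 127, 130.5, 136 and 126 CPM against 12.2 in other cells. Igf1 was not higher (150.2 ± 57.1 against 106 CPM), and Vegfa was lower, at 8.71 ± 5.67 against 34.9. Of 12 stress and immediate-early genes, which dissociation can induce, none was higher and 1 was lower (median log2 ratio 0.31). Atf3 was at 696, 251, 189 and 402 CPM in macrophages of WT replicates 1, 2, 4 and 5, with replicate 1 highest as for Cxcl2. Its part in the chemokine levels was not tested.

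Transcription factor genes were higher in 8 of the 13 that passed the filter. Besides Spi1 these included Maf (751 ± 307 CPM against 74.3), Irf8 (105 ± 16.8 against 1.26), Irf5 (46.0 ± 19.7 against 0.425), Tfec (46.6 ± 20.9 against 0.186) and Cebpb (243 ± 47.0 against 58.3). Zeb2 was at 191, 567, 1037 and 1139 CPM in WT replicates 1, 2, 4 and 5. The same order was seen in other kept cells, with 101, 274, 494 and 517 CPM. Its log2 ratio over the captures had a mean of 1.05 ± 0.09 (SD, n = 4). Elmo1, of the uptake list, was at 27.2, 149, 294 and 273 CPM in macrophages and 7.45, 31.5, 41.6 and 54.1 in other cells. WT replicate 1, counted with the older version of Cell Ranger, was lowest for both genes in both kinds of cell, and the part of the version in this was not tested.

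The genes lowest in macrophages were those of other cells of the nose. The 10 lowest ratios included the neuronal genes Stmn2 (1.64 ± 1.13 CPM against 134) and Tubb3 (1.99 ± 2.49 against 56.0), the epithelial genes Krt17 (5.41 ± 10.8 against 83.6), Spint2 (5.53 ± 7.22 against 86.9) and Lgals7 (4.25 ± 5.01 against 82.5), and Piezo2, a mechanosensory channel (3.37 ± 1.93 against 55.6). All 6 epithelial, all 6 cartilage and all 6 mesenchyme markers were lower. Mesenchymal RNA was nevertheless present. Col1a1 was at 479, 114, 137 and 330 CPM in macrophages of WT replicates 1, 2, 4 and 5, against a mean of 910 in other cells. The summed level of the 6 mesenchyme markers was 526 to 1132 CPM in WT macrophages, and 43.6 CPM in Prokr2Cre library 1.

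Of the 242 macrophages, 38 (15.7%) held at least 2 UMIs of at least 3 markers of another class, 29 of them of mesenchyme and 10 of cartilage. Of these 38, 21 also had a doublet score among the highest of their library. Over WT captures, 0% to 24.4% of macrophages had such a score, against 5.83% to 9.38% of kept cells. Without the 38 cells, 961 genes were higher and 1489 lower, and 844 and 1063 of these were among the 869 and 1366 found with them.

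Macrophages were grouped among themselves into 5 sub-clusters of 65, 59, 56, 40 and 22 cells. The clustering used genes of the same cells and no correction between libraries, so the genes that lead a sub-cluster are a description. Sub-cluster 3 held 45 cells of WT replicate 1 among its 56, and sub-cluster 2 held none of that replicate among its 59. Between these, library and kind of macrophage cannot be told apart. Both had high yolk sac type genes, summing to 8969 CPM in sub-cluster 2 and 10811 in sub-cluster 3. Leading genes of sub-cluster 3 included Car2 (of the osteoclast list), Fcna, Cxcl1, Ednrb, Ltc4s and Lyve1, with Lyve1 at 1001 CPM against 290 in the other macrophages. Sub-cluster 2 was led by Gm17268, Tex14, Tcf24 and Slc8a1, the last a sodium-calcium exchanger at 499 CPM against 90.0.

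Sub-cluster 1 had the lowest level of yolk sac type genes among the 4 deeper sub-clusters, 2791 CPM. Its macrophages held the monocyte gene Ccr2 in 25 of 65 cells (120 CPM), against 1 of 59 in sub-cluster 2 and 2 of 56 in sub-cluster 3. S100a4 was held by 24 of 65, against 1 of 59, 0 of 56 and, in sub-cluster 4, 6 of 40. Cd74, the invariant chain of MHC class II, was held by 33 of 65 at 453 CPM. The contrast in cells was weaker for Cd74, with 10 of 59 in sub-cluster 2 and 21 of 56 in sub-cluster 3. These counts of cells are unthinned, at median depths of 15690, 8817, 12066 and 13436 UMIs in sub-clusters 1, 2, 3 and 4. Of the UMIs of Cd74 in sub-cluster 1, 58.3% came from 1 cell of Prokr2Cre library 1. The level without that cell was 193 CPM, next to 28.1 and 57.3 with all cells in sub-clusters 2 and 3. Cells of every WT capture were in it (29, 13, 6 and 7 cells of replicates 1, 2, 4 and 5), as were 10 of the 12 macrophages of Prokr2Cre library 1. Mrc1 was at 495 CPM in it and at 1938 and 1277 in sub-clusters 2 and 3. Most genes among its leaders rested on few cells. The globins came mostly from the 1 cell of WT replicate 5 described above, Mmp9 from 6 cells, and Ccl5 from 3. The class II genes H2-Aa, H2-Ab1 and H2-Eb1 had 89.8% to 91.1% of their UMIs in that same cell of Prokr2Cre library 1, and were at 10.4 to 12.2 CPM without it. The list of class II and dendritic genes was at 814 CPM with that cell and 233 without it, next to 45.7 and 60.3 in sub-clusters 2 and 3. Core macrophage genes summed to 8037 CPM, next to 9029 and 9574 in sub-clusters 2 and 3.

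Sub-cluster 4 was led by genes of skeletal and mesenchymal cells, Dlk1, Ifitm5, Mia, Alpl and Lum. Its 40 cells held mesenchyme markers at 3238 CPM, against 41.4 to 54.5 CPM in sub-clusters 1 to 3, and core macrophage genes at 3497 CPM. Ibsp, bone sialoprotein, was at 1805 CPM but in only 4 cells. Sub-cluster 5 had a median of 1874.5 UMIs per cell, and its leaders Mt3, Aldoc and Fabp7 came from 1 or 2 cells each. Both stay unnamed.

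**Figure D4:**
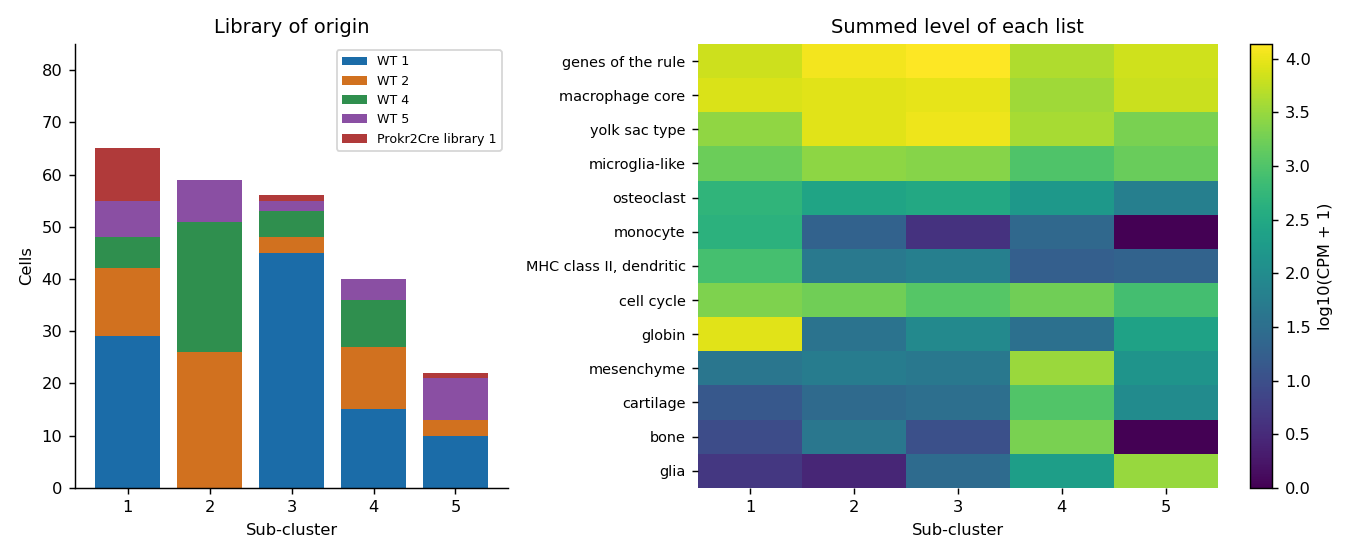
Left, cells of each sub-cluster of macrophages by library of origin. Right, summed level of gene lists in each sub-cluster as log10(CPM + 1): sub-cluster 1 is lower for yolk sac type and higher for monocyte genes than 2 and 3, its MHC class II level of 814 CPM rests for 71.9% on 1 cell, and sub-cluster 4 is high for mesenchyme, cartilage and bone genes.

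In Prokr2Cre library 1 the 12 macrophages had lower levels of yolk sac type genes than any WT capture, summing to 1220 CPM against 5085 to 7277. Without the cell that gave 48.1% of this sum it was 720.1 CPM. Folr2 was at 6.70 CPM, all from 1 cell. F13a1 was at 191 CPM and Mrc1 at 379, and without the cell richest in each they were at 76.2 and 209.6. The same held for Pf4, at 670 CPM and 354 without 1 cell, and for Ccl24, at 26.8 and 7.62. S100a4, a calcium-binding protein of monocytes among other cells, was at 543 CPM, held by 6 of 12 cells, against 32.5 to 61.4 CPM in WT captures. Without the richest cell of each library these were 349 and 9.90 to 21.3 CPM. The class II gene H2-Aa was at 422 CPM against 1.40 to 11.5 in WT, all 126 UMIs coming from 1 cell. Microglia-like genes were at 1599 CPM against 1680 to 2040, and at 1185 without the richest cell. The WT sums of the yolk sac type and microglia-like lists keep all cells, so the sums without a cell have no like WT value. With 12 cells of 1 nose, these values have no replicate, and background, alleles and sorting cannot be told apart.

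Signals that macrophages are known to need were read in other kept cells, placed in a class where they held at least 3 of its 6 markers. Csf1, a ligand of Csf1r, had its highest means in endothelial cells (23.9 ± 23.6 CPM, n = 4) and bone cells (19.4 ± 2.02). The endothelial mean rested on 1 capture at 58.9 CPM and was 12.3 without it, below bone. Csf1 was at 9.13 CPM in mesenchyme. The WT macrophages held it in replicate 1 only (9.77 CPM). Il34, the other ligand of Csf1r, was at 10.1 ± 9.95 CPM in pericytes (5.50 without the highest capture, at 23.9) and at 1.61 CPM or less in the endothelial, epithelial, mesenchyme, cartilage and bone classes. Cx3cl1, the ligand of Cx3cr1, was highest in endothelial (8.89 CPM) and epithelial cells (6.88 CPM), and Cx3cr1 was at 585 ± 204 CPM in macrophages. Tnfsf11, RANKL, was at 8.84 CPM in bone cells and had 0 UMIs in macrophages, which held its receptor Tnfrsf11a.

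Other pairs were arranged differently. Gas6 was higher in macrophages (225 CPM) than in the endothelial class (21.4 CPM), the next highest, while Pros1, the related ligand, was highest in glia (49.1 CPM). Cd47, the signal against uptake, was highest in neuronal cells (196 CPM) and was at 150 CPM in macrophages, whose Sirpa, its receptor, was at 273 ± 74.2 CPM. Ccl2 was at 270 CPM in macrophages and 20.1 CPM in pericytes. Cxcl12 was at 217 CPM in pericytes and 195 in mesenchyme, and its receptor Cxcr4 at 3.45 ± 1.92 CPM in macrophages. These are levels of RNA only, with classes that rest on markers.

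**Figure D5:**
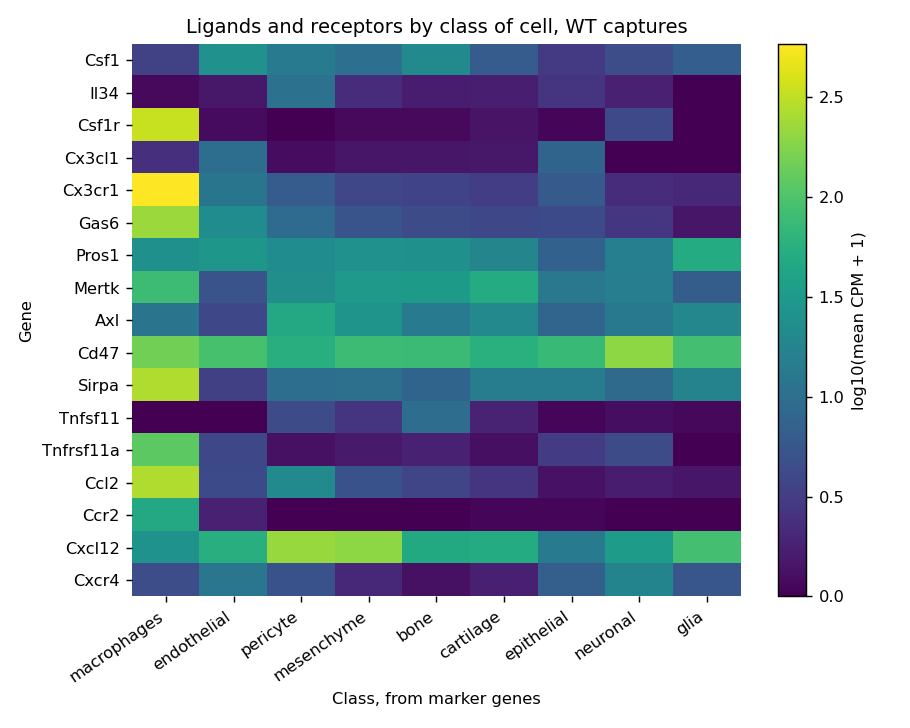
Mean level over WT captures of ligands and receptors in macrophages and in classes of other kept cells, as log10(mean CPM + 1). Csf1r, Cx3cr1, Sirpa, Tnfrsf11a, Gas6 and Ccl2 are brightest in the macrophage column, and Cxcl12 in the pericyte and mesenchyme columns.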

How the data were processed

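Raw UMI counts per gene and barcode were deposited by the authors without normalization. Cell Ranger 6.0.1 made them for WT replicate 1, 7.0.0 for the other WT libraries and 6.1.2 for Prokr2Cre, per the file headers. The submitters' processing notes name mm10, Cell Ranger 4 and Seurat 4.3.0. Whether intronic reads were counted is not given in the sources used here. The 30323 genes common to all libraries were used. Members and gene lists were chosen with earlier results of these data known.

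UMIs were summed per library over members and over other kept cells and scaled to CPM. A ratio against a sum of 0 used 3 counts per library. No test was run. Named genes were the list genes, the 25 highest ratios (at least 20 CPM, higher in all 4 captures) and the 10 lowest (at least 50 CPM in other cells). On simulated data the fold rule was tested. Sub-clusters used scanpy 1.11.5 (2000 variable genes without cell cycle genes, 20 components, 15 neighbours, leidenalg 0.10.2, resolution 0.5). Scrublet's own threshold marked at most 0.416% of barcodes, so doublets were kept, and the highest scores (0.8% per 1000 barcodes) were removed as an alternative. Gene positions are from GENCODE M21, promoters from RefSeq. Some genes of these lists are not reported here.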

Additional observations from a re-analysis of the deposited data

Results flagged for a closer look

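In 74 measures over the 4 WT captures, the highest or lowest capture lay apart from the others, by Dixon's criterion, in 6, and chance flags about 1 in 20. The summed globin genes of macrophages were at 24664 CPM in WT replicate 5 and at most 92.1 in the others, and 1 cell carried nearly all of it. The 6 erythroid markers were at 61.9 CPM there, against at most 3.82. The 8 monocyte genes were at 188 CPM in replicate 5, against 96.3 to 103, and 1 cell gave 84.4% of the UMIs of Ccr2 there. The 8 neutrophil genes were at 5.15 CPM in replicate 5 from 2 UMIs. The 6 bone markers were at 1032 CPM in replicate 1, against 13.4 to 69.6, and 1 cell gave 81.2% of the UMIs of Ibsp there. The 6 muscle markers were at 1.40 CPM in replicate 1 from 2 UMIs and at 0 elsewhere.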

How the results depend on the processing

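Of 113 combinations of a main result and an alternative, 96 moved a value by less than 1 SD over captures, or a count by less than 1.5 times, and 17 moved more. None of 170 called named genes changed sign under the alternatives. That largely follows from their choice, since called genes were at least 2-fold apart in all 4 captures. Of 256 list and named genes, 59 moved by 1 SD over captures or more with 2 of the 6 genes in place of 3. Without macrophages that held RNA of another class 59 did so, and 47 against cells without the 6 genes. The counts of higher and lower genes, 869 and 1366, became 463 and 589 with at least 50 CPM required, where fewer genes were tested, and 493 and 277 with 4-fold in place of 2-fold. Holding 2 of the 6 genes in place of 3 gave shares of 35.1% for microglia-like and 4.81% for osteoclast genes. Without thinning, the shares were 84.4% (yolk sac type), 78.1% (microglia-like), 18.2% (osteoclast) and 67.9% (cell cycle). At 1000 UMIs they were 50.5%, 18.7% and 18.0% for yolk sac type, microglia-like and cell cycle genes. With 2 genes of a list in place of 3 they were 83.0%, 72.5%, 5.11% and 55.5%. These shares therefore hold at their depth and number of genes only. Leaving out 1 WT replicate at a time gave a macrophage share of 0.692% to 0.934%, 888 to 987 higher and 1516 to 1651 lower genes, and shares of 62.9% to 73.0% (yolk sac type), 41.8% to 45.3% (microglia-like), 1.12% to 2.38% (osteoclast) and 36.6% to 39.0% (cell cycle). The osteoclast share rests on 4 cells. No paired analysis was possible because no result comes from a test. Each ratio is taken within a capture, so macrophages and other cells are compared library by library, and replicate numbers do not pair WT with Prokr2Cre libraries.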
